A study of Mus musculus with 4 samples.

Results

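The genes described here encode the enzymes and small proteins that keep reactive oxygen species and free metal in check: metallothioneins, superoxide dismutases, catalase, the glutathione enzymes, peroxiredoxins, the thioredoxin system, and the transcription factor Nrf2 (gene Nfe2l2) with its target Nqo1. They were chosen by symbol, as probe sets whose only annotated gene starts with Gst, Gpx, Prdx, Txn, Sod and a digit, Gcl or Gss, or is Mt1, Mt2, Mt3, Cat, Nqo1, Nfe2l2 or Gsr. This gave 65 probe sets of 50 genes, out of 10833 probe sets of 8251 genes that carry a single gene name. A probe set is a group of short probes that reads 1 transcript or a family of similar ones. The rule works by name, so it also takes in genes with other roles, such as Txnl4a, a component of the spliceosome. Another 2 probe sets are annotated to Prdx1 together with a second gene and are not among them.

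RNA came from the prefrontal cortex of female mice. The transgenic mice overexpress the human synaptic form of acetylcholinesterase (AChE), which hydrolyses the transmitter acetylcholine, and the control mice are of the strain FVB/N. There were 2 transgenic pools and 2 control pools, each of RNA from 4 mice and each read on 1 array. The strain of the transgenic mice, the promoter of the transgene and the age of the mice were not stated in the labels used here, so transgene and strain cannot be told apart. The labels leave unsaid whether pools of 1 group hold different mice, and p-values measure only how far these arrays vary, which may be technical.

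Superoxide dismutases turn superoxide into hydrogen peroxide, which catalase, glutathione peroxidases and peroxiredoxins then remove. Glutathione peroxidases draw on glutathione, a tripeptide made by glutamate-cysteine ligase (Gclc and Gclm) and glutathione synthetase (Gss), and peroxiredoxins draw mostly on thioredoxin. In the brain much of the glutathione supply comes from astrocytes. Metallothioneins are small cysteine-rich proteins that bind zinc and copper and can scavenge radicals. In mouse brain Mt1 and Mt2 are made mainly by astrocytes and are induced by metals, glucocorticoids and injury, whereas Mt3, also called growth inhibitory factor, is typical of the brain and is made by zinc-rich neurons and by astrocytes. Mt1 and Mt2 are switched on by the zinc-sensing transcription factor Mtf1, which binds metal response elements in their promoters.

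The metallothionein genes lie side by side on chromosome 8, and their promoters are shown because these neighbours differed in direction between the groups. Each window below runs from 250 bases before to 50 bases after the transcript start (RefSeq, build GRCm38.p6, + strand), at chr8:94178839-94179138 for Mt1, chr8:94172368-94172667 for Mt2 and chr8:94152357-94152656 for Mt3. Capitals mark the core of the metal response element, searched as TGCACNC or TGCGCNC on both strands. No match overlaps another.
Mt1: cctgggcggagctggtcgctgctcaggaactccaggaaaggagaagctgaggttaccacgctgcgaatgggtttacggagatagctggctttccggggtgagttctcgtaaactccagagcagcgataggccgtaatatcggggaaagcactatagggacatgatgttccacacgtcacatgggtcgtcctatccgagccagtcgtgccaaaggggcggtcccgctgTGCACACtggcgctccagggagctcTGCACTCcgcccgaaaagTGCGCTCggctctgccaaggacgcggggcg
Mt2: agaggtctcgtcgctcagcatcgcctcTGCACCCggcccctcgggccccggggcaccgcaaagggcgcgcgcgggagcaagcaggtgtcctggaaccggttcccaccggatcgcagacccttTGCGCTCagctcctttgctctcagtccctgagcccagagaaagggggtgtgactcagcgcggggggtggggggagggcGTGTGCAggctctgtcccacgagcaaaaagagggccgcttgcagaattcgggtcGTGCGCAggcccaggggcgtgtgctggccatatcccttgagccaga
Mt3: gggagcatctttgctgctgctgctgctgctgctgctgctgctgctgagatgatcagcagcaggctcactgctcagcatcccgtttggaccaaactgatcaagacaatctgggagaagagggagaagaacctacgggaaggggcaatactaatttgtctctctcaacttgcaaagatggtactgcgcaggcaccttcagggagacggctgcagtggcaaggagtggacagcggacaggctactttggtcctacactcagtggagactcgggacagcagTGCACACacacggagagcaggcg
The Mt1 window holds 3 matches, the Mt2 window 4 and the Mt3 window 1. Of all 32851 promoter windows in the same table, 25.7% hold at least 1 match and 7.11% hold at least 2. For the member genes that could be tested, 15 of 46 windows (of 37 genes) hold at least 1. The core of the antioxidant response element, through which Nrf2 acts (searched as TGACNNNGC on both strands), is in 7 of those 46 windows, against 12.4% of all windows. A match describes letters in the window and not a site in use.

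All values below are the deposited linear intensities. They were compared on the log2 scale after values under a floor of 19.675 were set to it, and only probe sets whose mean log2 value lay over the 40th percentile, a level of 49.4, were tested. Of the 65 members 51 probe sets of 43 genes passed this filter. Within the whole array the floored log2 values correlated across probe sets at 0.983 between the transgenic pools and 0.982 between the control pools, against 0.958 to 0.961 between groups. Mouse Ache, read by a probe set that was not checked for the human transgene, had 365.3 and 355.6 in the transgenic pools, against 599.5 and 621.9 in the control pools. Of 5 tested probe sets for markers of cortical projection neurons, Camk2a (93660_at) was lower (log2 change -1.54, adjusted p = 0.0241) and 4 did not pass. That is 20.0% lower, against 4.56% of all tested probe sets. Among those 4, Tbr1 read 1317.5 and 1513.9 in the transgenic pools, against 1399.1 and 1817.7 in the control pools, and Nrgn read 2239.7 and 1464.5 in the transgenic pools, against 2470.4 and 2440.8 in the control pools. Tbr1 and Nrgn had log2 changes of -0.18 and -0.44, while Fezf2 and Neurod6 had 0.0 and 0.22. Camk2a (93660_at) read 31.2 and 62.9 in the transgenic pools, against 136.6 and 121.0 in the control pools. Its transgenic mean of 47.05 lay under the filter level of 49.4, so this probe set was tested only through the control pools. The choroid plexus markers Ttr, Kl and Folr1 lay under the filter.

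Sod1, the copper- and zinc-dependent superoxide dismutase of the cytosol, showed the largest difference of the family. Its probe set (100538_at) read 1474.8 and 1194.1 in the transgenic pools, against 2655.4 and 2781.0 in the control pools. Both transgenic pools thus lay well below both control pools. Sod1 averaged 1334 ± 198 in the transgenic pools and 2718 ± 88.8 in the control pools (SD, n = 2 pools each), a 2.05-fold lower signal (log2 change -1.03 ± 0.13 SE, adjusted p = 0.000728, limma). It passed the test in 12 of 13 alternative settings, with log2 changes of -1.19 to -0.88, and missed it without the filter on dim probe sets (adjusted p = 0.151).

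The other members that act on superoxide and hydrogen peroxide did not pass. Sod2, the manganese enzyme of mitochondria, read 258.5 and 280.9 in the transgenic pools, against 214.2 and 244.0 in the control pools. Its log2 change was 0.24, with a 95% interval of -0.14 to 0.62, so a fall as large as that of Sod1 lies outside its interval. Relative to Sod2 on the same array, Sod1 was lower in the transgenic pools by 1.27 on the log2 scale, and by 1.0 to 1.54 over the 4 pairings of a transgenic with a control pool. Sod3, the secreted form, read 256.1 and 223.0 in the transgenic pools, against 303.4 and 242.6 in the control pools, and the groups overlapped. Catalase, which breaks down hydrogen peroxide in peroxisomes, was read by a pair of probe sets with opposite signs, at a log2 change of 0.38 (160479_at) and of -0.13 (161877_f_at). Ccs, the chaperone that loads copper into Sod1, is named for that role and outside the rule for naming genes. Its tested probe sets had log2 changes of 0.28 and -0.20, and neither passed (adjusted p = 0.432 and 0.713).

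**Figure D1:**
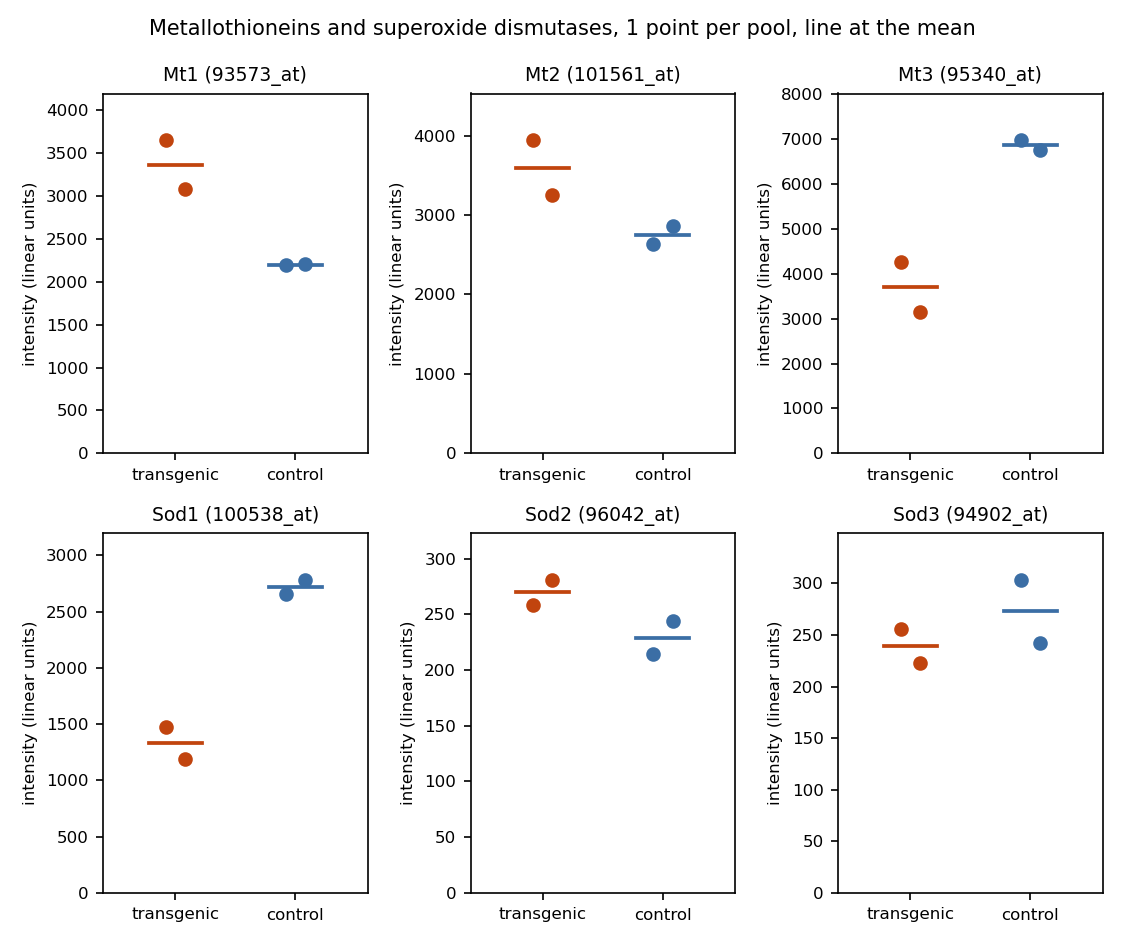
Intensity (linear units, each axis from 0) of the 3 metallothioneins and 3 superoxide dismutases, with 1 point per pool and a line at the group mean, transgenic left and control right. Mt1 and Mt2 lie higher in both transgenic pools, Mt3 and Sod1 lie lower in both, and Sod3 overlaps between groups.

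The metallothioneins split. Mt3 (95340_at) read 4252.2 and 3153.5 in the transgenic pools, against 6966.2 and 6744.4 in the control pools. Mt1 (93573_at) read 3643.4 and 3072.9 in the transgenic pools, against 2193.1 and 2199.8 in the control pools. Mt2 (101561_at) read 3938.5 and 3248.6 in the transgenic pools, against 2635.4 and 2862.2 in the control pools. The groups did not overlap for any of the 3 genes: both transgenic pools were low for Mt3 and high for Mt1 and Mt2. Of all tested probe sets 23.8% lay above and 29.9% below both control pools in both transgenic pools. Mt3 fell 1.87-fold (log2 change -0.90 ± 0.14 SE, adjusted p = 0.00262) and Mt1 rose 1.52-fold (0.61 ± 0.12, adjusted p = 0.0104). Mt2 had a log2 change of 0.38 ± 0.12, with a 95% interval of 0.11 to 0.66, and did not pass (adjusted p = 0.0856). On each array the ratio of Mt3 to Mt1 is free of any scaling between arrays. It was lower in the transgenic pools by 1.51 on the log2 scale, and by 1.39 to 1.63 over the pairings of pools.

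The spread between the transgenic pools was wider than between the control pools for all 3, with the first transgenic pool the higher each time. The SD was 403 and 4.74 for Mt1 (transgenic and control), 488 and 160.4 for Mt2, and 777 and 156.8 for Mt3. Without transgenic replicate 1 the log2 change of Mt1 was 0.48 and its adjusted p was 0.0815. Without the intensity trend in the variance the adjusted p was 0.109 for Mt1 and 0.0620 for Mt3, and without the filter on dim probe sets it was 0.207 and 0.242. Mt1 and Mt2 have similar sequences, and how far each probe set also reads the other gene was not tested.

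Genes that bear on metal handling were read from a list of 81 related redox genes, of which 46 could be tested. Mtf1, the zinc sensor that drives Mt1 and Mt2, read 248.4 and 223.1 in the transgenic pools, against 89.3 and 71.0 in the control pools. Its 2.96-fold rise passed the test (log2 change 1.56 ± 0.21, adjusted p = 0.00128). The Mtf1 call was kept in 10 of 12 alternative settings that tested it, with log2 changes of 1.39 to 1.73 over all settings. It was lost without the filter on dim probe sets (adjusted p = 0.131) and without transgenic replicate 1. Slc39a1, a zinc importer of the cell surface, fell, with 290.0 and 259.7 in the transgenic pools, against 470.7 and 418.6 in the control pools (log2 change -0.69 ± 0.16, adjusted p = 0.0222). That call was lost in 5 of 13 alternative settings, among them leaving out control replicate 1 (0.0992) or transgenic replicate 1 (0.0854) or 2 (0.144). The next 2 genes are named for their roles and outside the naming rule. Slc30a1, a zinc exporter that Mtf1 also controls, had a log2 change of -0.15 with a 95% interval of -0.91 to 0.61. Slc30a3, which loads zinc into synaptic vesicles, read 2304.1 and 2017.2 in the transgenic pools, against 2931.8 and 2661.5 in the control pools, and did not pass (log2 change -0.37, adjusted p = 0.0805).

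Markers of several cell types differed between the same pools. Of 15 tested astrocyte probe sets 3 were higher (Aqp4 at both of its probe sets, and Fabp7) and 1 was lower (S100b), which is 20.0% and 6.67%, against 5.46% and 4.56% of all tested probe sets. In the control pools Aqp4 read 35.1 and 35.4 (102703_s_at) and 36.7 and 47.5 (102704_at), under the filter level of 49.4. Both Aqp4 probe sets were thus tested only through the transgenic pools. With the called probe sets included, 5 of the 15 lay above both control pools in both transgenic pools and 5 lay below both. Over all tested probe sets these shares were 23.8% and 29.9%. The median log2 change of the 15 was -0.04. The summed intensity of the 16 astrocyte probe sets measured was 13392.6 and 14765.0 in the transgenic pools, against 13059.8 and 13582.6 in the control pools. Fabp7, which was higher, contributed 1786.6 and 1946.1 to it in the transgenic pools, against 664.0 and 616.7 in the control pools. Without Fabp7 and Aqp4, left out after their values were seen, the sum was 11076.3 and 11917.1 in the transgenic pools, against 12324.0 and 12883.0 in the control pools.

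Of 12 tested neuron probe sets 0 were higher and 2 were lower (Snap25 and Camk2a, 16.7%), with a median log2 change of -0.37. For this and each list below, the shares over all tested probe sets were 5.46% higher and 4.56% lower. Camk2a was tested only through its control pools. Gad1 (log2 change 0.33) was the 1 tested neuron probe set above both control pools in both transgenic pools, and did not pass. Another 7 lay below both, against 23.8% above and 29.9% below among all tested probe sets. The sum of the 14 neuron probe sets measured was 25539.5 and 26495.3 in the transgenic pools, against 31512.9 and 30723.3 in the control pools. Olfactory bulb markers were higher at 3 of 4 tested probe sets (Th, Eomes and Meis2, median log2 change 0.87), with a summed list of 1221.2 and 1087.3 in the transgenic pools, against 847.8 and 597.5 in the control pools. Eomes read 44.9 and 21.0 in the control pools, under the filter level of 49.4. It was thus tested only through its transgenic pools. Endothelial markers were higher at 2 of 7 tested probe sets (28.6%), both of Flt1 (log2 change 3.03 and 0.85). The Flt1 change of 3.03 was at 98453_at, where both control pools lay under the floor (17.0 and 19.5). Its size thus depends on the floor, and this probe set was tested only through the transgenic pools. Among microglial markers 1 of 9 was lower (Tyrobp, -0.95), and among oligodendrocyte markers 1 of 10 (Mobp at 99047_at, -1.02). The tested striatal markers (4 probe sets) and markers of choroid plexus and meninges (5 probe sets) gave 0 calls. Red blood cells are rich in Sod1, Prdx2, Gpx1 and catalase. The blood markers Hbb-b2, Hba-a1 and Alas2 were higher, while Slc4a1, too dim to test, read 26.1 and 41.6 in the transgenic pools, against 48.9 and 49.5 in the control pools. The 4 blood markers summed to 11913.6 and 10200.9 in the transgenic pools, against 3881.7 and 3427.9 in the control pools. No marker read 0 on any array. The part of cell composition in these results was not tested, and in pooled tissue fewer cells of a type and less RNA per cell cannot be told apart.

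Across the family few probe sets passed. Of the 51 tested, 1 was higher (Mt1, 1.96%) and 2 were lower (Mt3 and Sod1, 3.92%), against 5.46% higher and 4.56% lower among all 7453 tested probe sets. The median log2 change was -0.05 for the members and -0.03 for all tested probe sets. A log2 change within 0.25 of 0 was found for 33 of 51 members (64.7%), against 53.1% of all tested probe sets. Both transgenic pools lay above both control pools in 10 members and below both in 15, which is 19.6% and 29.4%, against 23.8% and 29.9% of all tested probe sets. An unadjusted p under 0.05 was reached by 11 members (21.6%), against 24.3% of all. For 42 of the 48 members that did not pass, the whole 95% interval lay within a log2 change of 1, that is, within a doubling or halving. No such count is given for all tested probe sets, so this cannot be read as particular to the members.

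**Figure D2:**
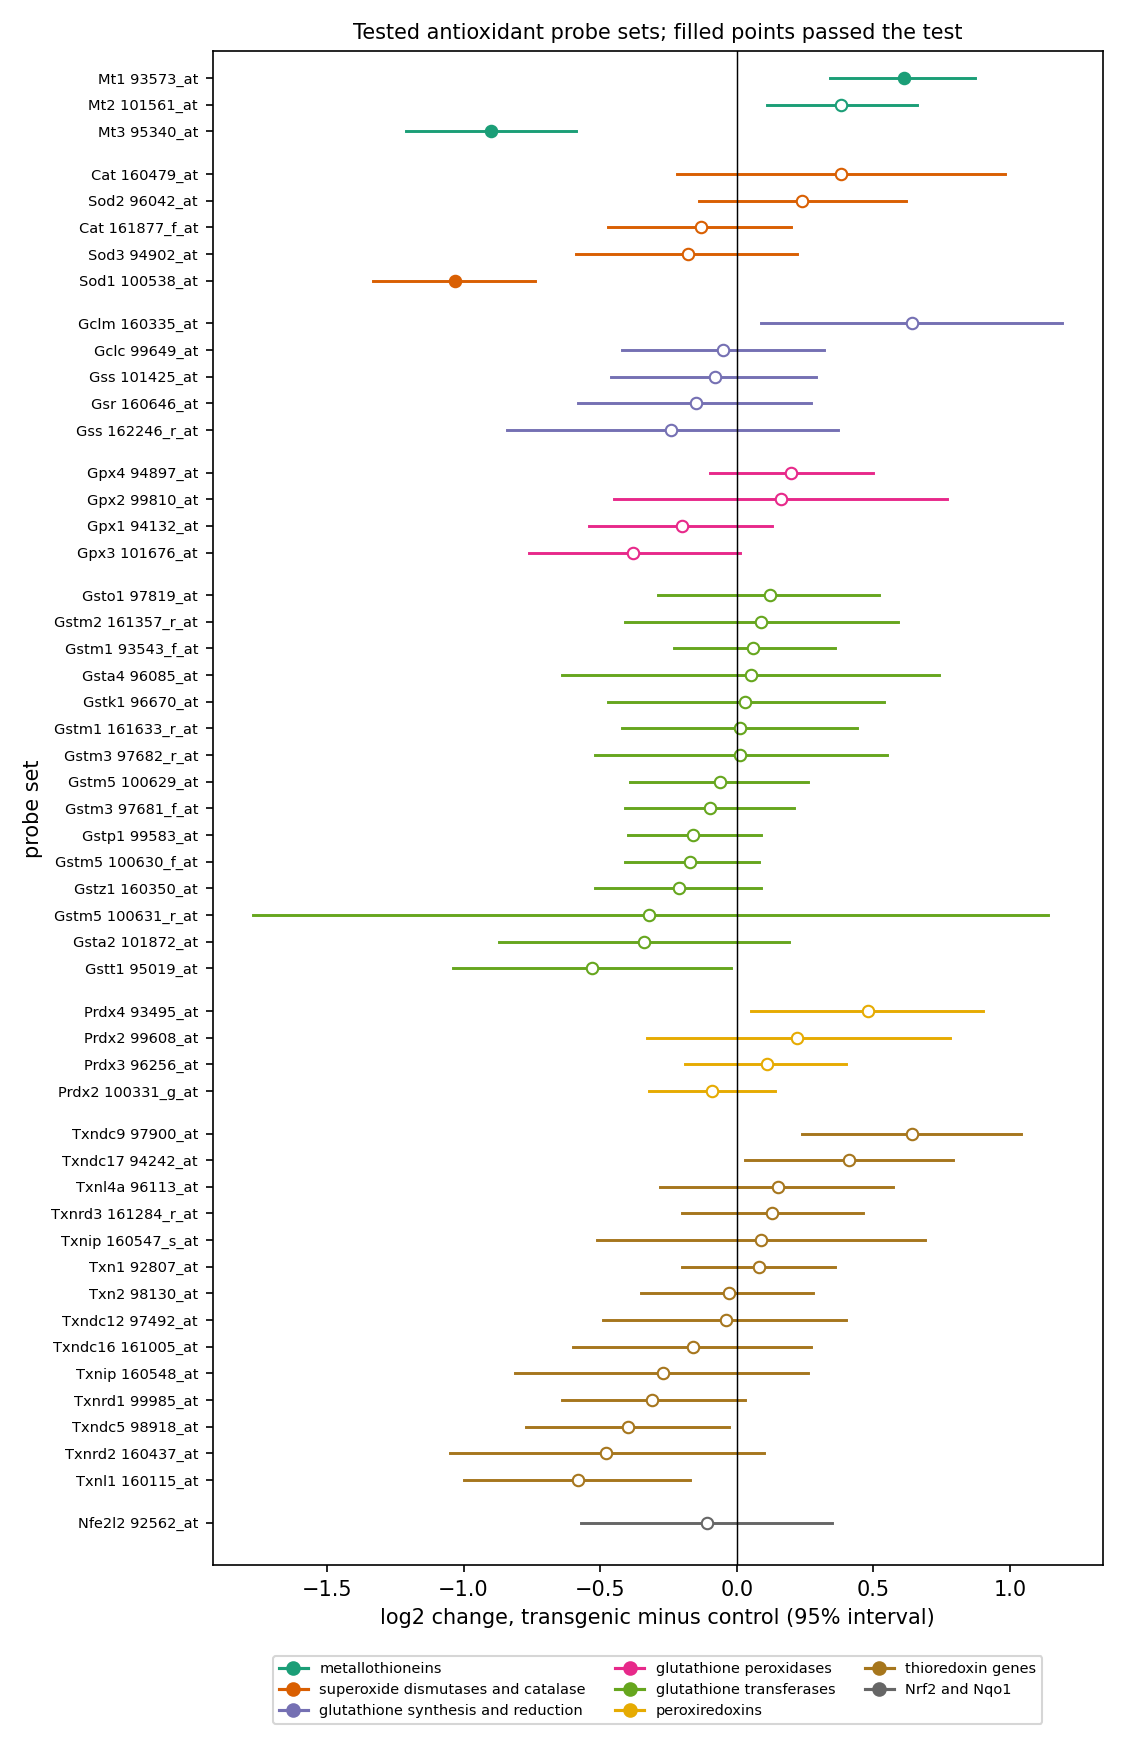
Log2 change (transgenic minus control) of the 51 tested probe sets with 95% intervals from the limma fit, grouped by role from metallothioneins at the top to Nfe2l2 at the bottom, filled where the test was passed. The filled points are Mt1 at 0.61, Mt3 at -0.90 and Sod1 at -1.03, and the glutathione transferases gather near 0.

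The genes that make and recycle glutathione gave no call. The catalytic subunit of glutamate-cysteine ligase, Gclc, read 227.5 and 254.3 in the transgenic pools, against 245.8 and 251.5 in the control pools, and the groups overlapped (log2 change -0.05, 95% interval -0.42 to 0.32). The modifier subunit of the same enzyme, Gclm, read 126.8 and 125.4 in the transgenic pools, against 70.3 and 93.6 in the control pools. Gclm was thus higher in both transgenic pools, at a log2 change of 0.64, and did not pass (95% interval 0.09 to 1.19, adjusted p = 0.144). The promoter window of Gclm holds 1 antioxidant response element core and 3 metal response element cores. An antioxidant response element core is also in a window of Mt2, Sod1, Gstm5, Nfe2l2, Txndc5 and Txnrd1. Glutathione synthetase, Gss, had log2 changes of -0.08 and -0.24 at its probe sets. Glutathione reductase, Gsr, which regenerates reduced glutathione, had -0.15, with transgenic pools that spread on either side of the control pools (305.8 and 445.6, against 411.1 and 409.6).

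Among the glutathione peroxidases 4 of 7 probe sets could be tested and 0 passed. Gpx4, which protects membrane lipids from peroxidation, read 639.8 and 666.0 in the transgenic pools, against 548.8 and 589.8 in the control pools (log2 change 0.20, adjusted p = 0.417). Gpx1, the cytosolic enzyme, read 344.6 and 335.7 in the transgenic pools, against 407.8 and 375.2 in the control pools (-0.20, adjusted p = 0.460). Gpx3, the secreted form, read 223.2 and 234.2 in the transgenic pools, against 325.2 and 270.4 in the control pools (-0.38, adjusted p = 0.216). The groups did not overlap for these 3 genes, with Gpx4 high and Gpx1 and Gpx3 low in the transgenic pools, a separation that 23.8% (higher) and 29.9% (lower) of all tested probe sets show, and none of these differences passed. Gpx2, an enzyme of the gut lining, overlapped between groups. Gpx7 and both probe sets of Gpx5, an enzyme of the epididymis, were too dim to test, at 54.8 or less on every array.

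Glutathione transferases couple glutathione to electrophiles, including products of lipid peroxidation. They form the largest group, with 22 probe sets of 15 genes, and of the 15 probe sets tested 0 passed. Their log2 changes ran from -0.53 to 0.12 with a median of -0.06. The pi-class gene Gstp1 read 1902.3 and 1826.4 in the transgenic pools, against 2013.4 and 2139.6 in the control pools (log2 change -0.16, 95% interval -0.40 to 0.09). Gstm1, the mu-class enzyme of astrocytes, read 3781.5 and 3178.2 in the transgenic pools, against 3638.9 and 3025.8 in the control pools at 93543_f_at. The groups overlapped, and the 95% interval of -0.23 to 0.36 holds no change as large as that of Mt1 or Mt3. Gstt1, of the theta class, read 119.8 and 88.9 in the transgenic pools, against 145.8 and 152.5 in the control pools. It was the lowest of the class and did not pass (log2 change -0.53, adjusted p = 0.189). Gstz1, which also works in tyrosine breakdown, had -0.21, Gsta2 had -0.34 and Gsta4, which clears hydroxynonenal, had 0.05. Gsto1 and the mitochondrial and peroxisomal Gstk1 had 0.12 and 0.03.

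Several mu-class genes were read by more than 1 probe set. Gstm3 had log2 changes of -0.10 and 0.01, and Gstm2 had 0.09 at its tested probe set. For Gstm5, 100629_at and 100630_f_at had -0.06 and -0.17, while 100631_r_at read 43.2 and 119.5 in the transgenic pools, against 42.4 and 188.6 in the control pools. In both groups 1 pool was thus well below the other, and the 95% interval ran from -1.77 to 1.14. With control replicate 1 left out this probe set passed at a log2 change of -1.39 (adjusted p = 0.0106), and with control replicate 2 left out it stood at 0.76. Names ending in _f_at or _r_at mark, by the convention of such arrays, sets whose probes are shared within a family or were chosen by relaxed rules, and mu-class genes are alike in sequence, so reads of a paralog were not told apart. The 7 transferase probe sets too dim to test were those of Gsta1, Gsta3, Gstm6 (both), Gstt2, and 1 each of Gstm2 and Gstm5, at 66.0 or less on every array.

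Peroxiredoxins reduce peroxides through a reactive cysteine. Prdx2, the abundant cytosolic form of neurons and red blood cells, read 2936.7 and 3018.5 in the transgenic pools, against 3141.5 and 3211.6 in the control pools at 100331_g_at. The transgenic pools were both lower, by a small amount (log2 change -0.09, 95% interval -0.32 to 0.14). A second Prdx2 probe set (99608_at) had 0.22 and the third (100330_at) was too dim to test. Prdx3, the mitochondrial form, had 0.11. Prdx4, which works in the endoplasmic reticulum, read 224.0 and 193.8 in the transgenic pools, against 139.9 and 160.0 in the control pools, and did not pass (log2 change 0.48, 95% interval 0.05 to 0.90, adjusted p = 0.157). Srxn1, sulfiredoxin, which restores overoxidised peroxiredoxins, is named for that role outside the naming rule. It read 371.8 and 402.2 in the transgenic pools, against 212.7 and 283.8 in the control pools at 102780_at (log2 change 0.65, adjusted p = 0.0512), and its other probe set had -0.18.

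In the thioredoxin group 14 of 15 probe sets were tested and 0 passed. The thioredoxins themselves were close between groups: cytosolic Txn1 read 1305.0 and 1437.0 in the transgenic pools, against 1227.4 and 1366.0 in the control pools, and mitochondrial Txn2 read 979.2 and 792.1 in the transgenic pools, against 895.2 and 908.6 in the control pools. Their 95% intervals were -0.20 to 0.36 and -0.35 to 0.28. Of the reductases that keep them active, Txnrd1 and Txnrd2 were low and Txnrd3 was high in both transgenic pools, and none passed. Such a separation was found for 29.9% (lower) and 23.8% (higher) of all tested probe sets. Txnrd1, of the cytosol, read 320.5 and 310.5 in the transgenic pools, against 379.6 and 401.6 in the control pools (log2 change -0.31, adjusted p = 0.245). Txnrd2, of mitochondria, read 84.6 and 66.9 in the transgenic pools, against 109.1 and 100.4 in the control pools (-0.48, adjusted p = 0.297). Txnrd3 read 396.0 and 388.8 in the transgenic pools, against 351.4 and 367.0 in the control pools at its tested probe set (0.13, adjusted p = 0.653). Txnip, which binds and inhibits thioredoxin, had 0.09 and -0.27 at its probe sets, with overlapping groups at both.

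Among the thioredoxin-like proteins 2 lay near the threshold, Txndc9 and Txnl1. Txndc9, a regulator of the chaperonin that folds actin and tubulin, read 243.9 and 226.3 in the transgenic pools, against 144.4 and 157.0 in the control pools. Both transgenic pools were higher, with a log2 change of 0.64 ± 0.18 and an adjusted p of 0.0519, and it passed with a filter at the 60th percentile (0.0434) and with the replicate number as a block (0.0491). Txnl1, a thioredoxin-like protein of the proteasome, read 191.9 and 256.4 in the transgenic pools, against 339.1 and 326.0 in the control pools (log2 change -0.58 ± 0.18, adjusted p = 0.0805). Txndc17, a cytosolic disulfide reductase, read 244.9 and 263.1 in the transgenic pools, against 189.8 and 192.5 in the control pools (0.41, adjusted p = 0.169). Txndc5, a disulfide isomerase of the endoplasmic reticulum, read 313.5 and 255.0 in the transgenic pools, against 367.4 and 379.5 in the control pools (-0.40, adjusted p = 0.170). For these 4 genes the groups did not overlap. Over the tested thioredoxin group 21.4% lay above and 28.6% below both control pools in both transgenic pools. The shares over all tested probe sets were 23.8% and 29.9%. Txndc12 and Txndc16 had -0.04 and -0.16, the splicing protein Txnl4a had 0.15, and all 3 overlapped between groups.

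Nfe2l2, which encodes the transcription factor Nrf2, read 129.9 and 152.7 in the transgenic pools, against 164.4 and 140.5 in the control pools, and the groups overlapped (log2 change -0.11, 95% interval -0.57 to 0.35). Its classical target Nqo1, a quinone reductase, was too dim to test at both probe sets, with 17.0 to 41.8 in the transgenic pools and 23.5 to 33.5 in the control pools. Hmox1, haem oxygenase, another Nrf2 target named here for that role, read 321.5 and 319.4 in the transgenic pools, against 417.8 and 381.6 in the control pools, and did not pass (log2 change -0.32, adjusted p = 0.233).

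Of the related redox genes, 5 of 55 tested probe sets (9.09%) were higher and 2 (3.64%) were lower in the transgenic pools, against 5.46% and 4.56% of all tested probe sets, with a median log2 change of -0.03. The 5 higher probe sets are of 4 genes. The list was chosen with earlier results of these data known, so no conclusion is drawn from these shares. Glo1, glyoxalase, which clears methylglyoxal with the help of glutathione, rose at both of its probe sets. At 93269_at it read 1805.4 and 1670.6 in the transgenic pools, against 824.8 and 862.5 in the control pools (log2 change 1.04 ± 0.12, adjusted p = 0.000398). At 93268_at it read 848.5 and 926.6 in the transgenic pools, against 345.3 and 357.3 in the control pools (1.34 ± 0.14, adjusted p = 0.000179). The Glo1 calls were lost in 1 of 13 alternative settings, the one without the filter on dim probe sets (adjusted p = 0.0681 and 0.0599).

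Mafg, a small Maf protein that pairs with Nrf2 or Bach1 on antioxidant response elements, rose 3.89-fold at 96147_at (log2 change 1.96 ± 0.22, adjusted p = 0.000304). It read 214.5 and 237.7 there in the transgenic pools, against 59.6 and 56.6 in the control pools, while 93406_at, also of Mafg, had 0.68 (adjusted p = 0.230). The call at 96147_at was kept in 11 of 12 alternative settings that tested it. It was lost without the filter on dim probe sets (adjusted p = 0.085). Bach1, a repressor of Nrf2 targets such as Hmox1, read 173.1 and 180.3 in the transgenic pools, against 65.2 and 95.5 in the control pools at 94415_at (log2 change 1.16 ± 0.25, adjusted p = 0.0162). Its other probe set (93142_at) lay under the floor on every array and was not tested. The call at 94415_at was kept in 9 of 12 alternative settings that tested it, with log2 changes of 0.89 to 1.44. Leaving out transgenic replicate 1 or 2 was among the settings that lost it. Idh2, a mitochondrial source of NADPH for glutathione and thioredoxin reduction, was lower, at 168.0 and 141.8 in the transgenic pools, against 247.9 and 279.1 in the control pools (-0.77 ± 0.18, adjusted p = 0.0284). That call too was lost in 5 of 13 alternative settings, without control replicate 2 (0.117) and without transgenic replicate 1 (0.0835) or 2 (0.167) among them.

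**Figure D3:**
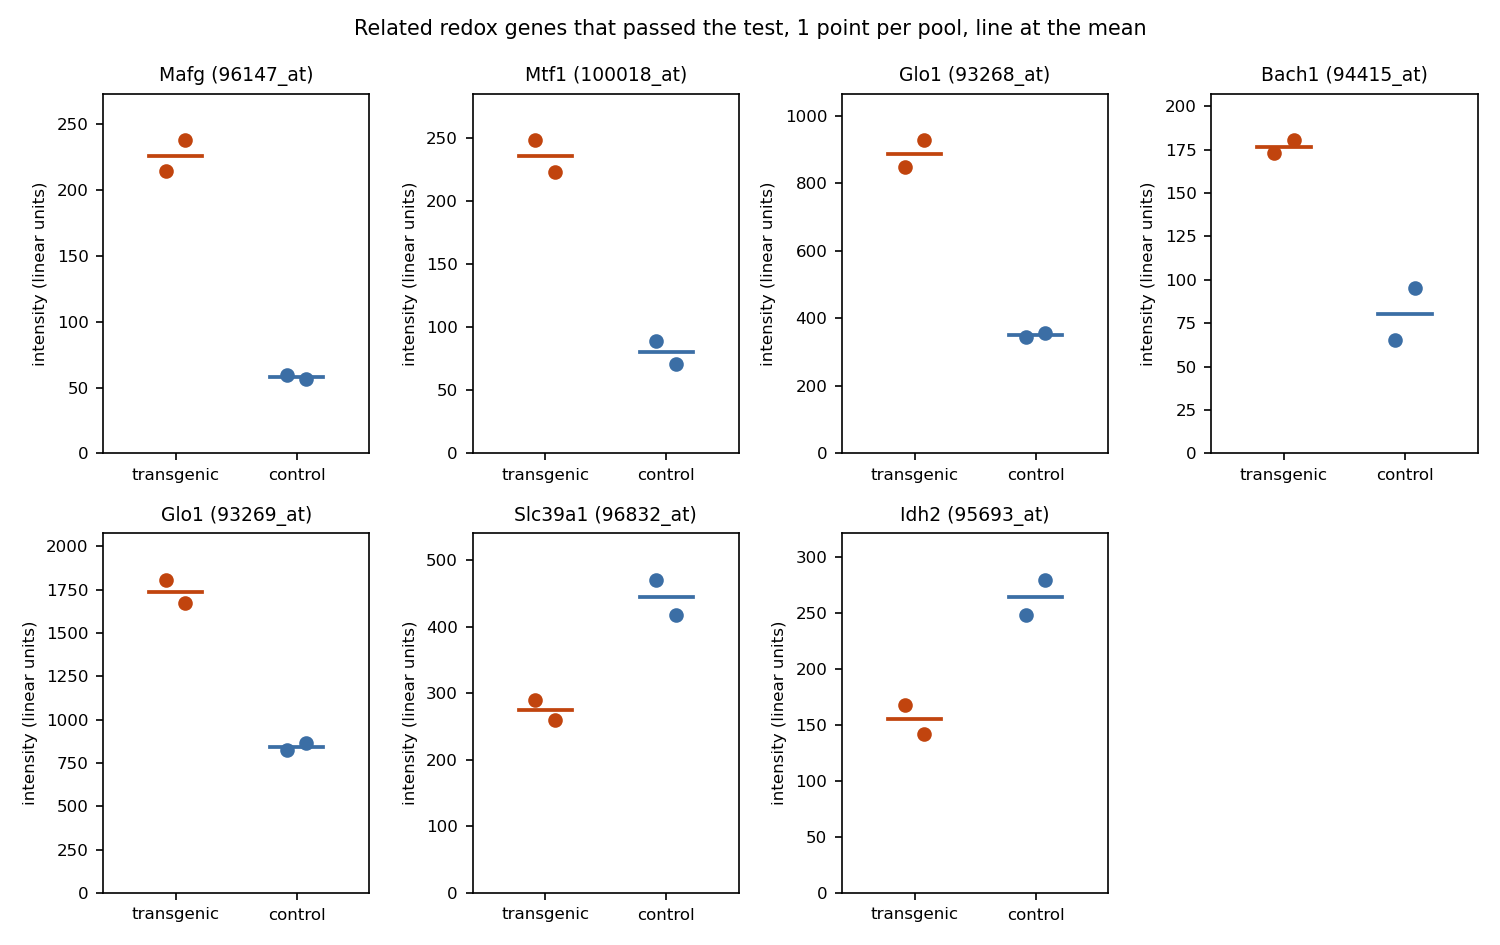
Intensity (linear units, each axis from 0) of the 7 related redox probe sets that passed the test, with 1 point per pool and a line at the group mean, transgenic left and control right. Mafg, Mtf1, Bach1 and both Glo1 probe sets lie higher in both transgenic pools, and Slc39a1 and Idh2 lie lower in both.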

How the data were processed

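The deposited table holds 1 linear intensity per probe set and array for 4 arrays. The steps by which the authors made it are not stated in the labels, and the unit, intensity, was read from the deposited values. Array medians differed by at most 1.85% and the trimmed means were 250.1 to 250.3, so the values were used as deposited. After 66 control probe sets were set aside, 12422 remained. Gene symbols came from the platform annotation and were checked against a RefSeq gene table (GRCm38.p6), which held all 65 members. Values were floored at the 25th percentile (19.675) and log2-transformed, and 7453 probe sets over the 40th percentile of mean log2 value were fitted with limma 3.58.1 in R 4.3.3 (lmFit, eBayes with an intensity trend, two-sided, 2 residual degrees of freedom plus 7.51 from the shared variance). P-values were adjusted by Benjamini-Hochberg over all 7453, with a threshold of 0.05, and the 95% intervals are unadjusted. The number of arrays limits the precision (median SE 0.188 on the log2 scale). The procedure was tested on simulated data. Members and lists were chosen with earlier results of these data known. Every member is described, and genes outside the members were named when they passed in the list of related redox genes, or else as stated. Alternatives changed the scaling, floor, filter, variance model and replicate block, or left out 1 array with the tested probe sets kept.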

Additional observations from a re-analysis of the deposited data

How the results depend on the processing

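Of 650 comparisons of a member's log2 change with an alternative setting, 608 kept direction and side of the threshold, 6 lost the call (those of Mt1, Mt3 and Sod1 given above), 3 gained one (Txndc9 under 2 settings and Gstm5 at 100631_r_at under 1), and 33 turned sign. Over all tested probe sets 407 were higher and 340 lower in the transgenic pools. Without the filter on dim probe sets these counts were 34 and 14, with 0 members and 0 related redox probe sets higher and 0 of each lower. Without the intensity trend 123 of all probe sets were lower, and 0 members were higher, 1 member lower and 0 related redox probe sets lower. With the filter at the 60th percentile 2 members were higher, and 3 related redox probe sets were higher and 4 lower. With median scaling 4 related redox probe sets were lower.

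The array titles number the pools of both groups alike and state no pairing, and the deviations of same-numbered pools from their group means correlated at 0.036 across probe sets. With the replicate number as a block 466 of all probe sets were higher and 426 lower, 2 members were higher, and 5 related redox probe sets were lower.

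Leaving out 1 array in turn gave 180 to 435 of all probe sets higher and 102 to 314 lower, with 201 and 102 without transgenic replicate 1, and 180 and 133 without transgenic replicate 2. It gave 0 to 1 member higher, 3 to 7 related redox probe sets higher and 0 to 1 lower. The group left with a single array is assumed to vary like the other. Members that turned sign here all failed the test with all 4 arrays, and their log2 changes ranged as follows. The range was -0.23 to 0.01 for Nfe2l2, -0.13 to 0.45 for Gpx2, -0.13 to 0.03 for Gclc, -0.42 to 0.12 for Gsr, -0.19 to 0.02 for Gss (101425_at), -0.44 to 0.54 for Gsta4 and -0.09 to 0.16 for Gstk1. It was -0.19 to 0.21 for Gstm1 (161633_r_at), -0.07 to 0.20 for Gstm1 (93543_f_at), -0.18 to 0.35 for Gstm2, -0.35 to 0.38 for Gstm3 (97682_r_at), -0.22 to 0.09 for Gstm5 (100629_at), -1.39 to 0.76 for Gstm5 (100631_r_at) and -0.01 to 0.24 for Gsto1. Prdx2 (99608_at) had -0.07 to 0.52, Txn2 -0.19 to 0.12, Txndc12 -0.15 to 0.06, Txndc16 -0.44 to 0.12, Txnip -0.23 to 0.40 (160547_s_at) and -0.57 to 0.03 (160548_at), and Txnl4a -0.08 to 0.37. Scaling turned Gstm1 at 161633_r_at to -0.0033 (median scaling) and Gstm3 at 97682_r_at to -0.0022 (median scaling) and -0.01 (quantile normalization). The cause of these changes was not tested.

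With 2 pools a group, small differences lie within the error, and members near the floor could not be tested.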
